A study of Mus musculus with 17 samples.

Results

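The 38 genes described here encode the extracellular matrix that stromal cells lay down, and they were followed through the epithelial cells of 17 mammary tumors. They were chosen by name for their known place in the matrix, and all 38 were found among the 28785 genes on the array. The list holds 5 fibrillar collagen genes, 5 type VI and fibril-associated (FACIT) collagen genes, 5 basement membrane genes, 8 genes of adhesive and matricellular glycoproteins, 4 proteoglycan genes, 5 genes of elastic fibers and matrix Gla protein, and 6 genes of enzymes and chaperones that process or cross-link collagen.

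Each tumor came from 1 transgenic FVB mouse, and 9 mice carried p75-CUX1 and 8 carried p110-CUX1, short isoforms of the homeodomain protein CUX1 driven by the mouse mammary tumor virus promoter, which acts mainly in mammary epithelium. The p75 tumors were 4 adenosquamous carcinomas (p75-47, p75-80, p75-94 and p75-101), 3 solid carcinomas (p75-129, p75-150 and p75-534), 1 adenomyoepithelioma (p75-90) and 1 adenocarcinoma (p75-216). The p110 tumors were 6 solid carcinomas (p110-121, p110-143, p110-225, p110-314, p110-360 and p110-416), 1 adenoma (p110-98) and 1 adenomyoepithelioma (p110-374). The class of p110-121 rests on its sample label, since the study's own list of solid carcinomas does not name it. The last 2 kinds of p75 tumor and the last 2 kinds of p110 tumor form glands and were pooled here as 4 glandular tumors, so this group mixes 3 diagnoses. The sample labels give no Wnt group. The tumors were put into 3 clusters as these were read here by eye from the study's heat map of Wnt genes, a reading that was not checked against any list, with 5 high-Wnt tumors (p75-47, p75-80, p75-94, p110-225 and p110-374), 5 medium-Wnt tumors (p75-90, p75-129, p75-216, p110-98 and p110-121) and 7 low-Wnt tumors. All groups are transgenic tumors, and no normal gland was used here. Epithelial cells were cut from frozen sections by laser, and their RNA was amplified in 2 rounds and hybridized against an amplified universal mouse reference RNA with the dyes swapped. Every value below is a log2 ratio of tumor over reference, in which 0 is the level of the reference and 1 unit is a doubling. Ages were not given in the sources used here.

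Fibrillar collagens are secreted as procollagens, trimmed by proteases outside the cell, and cross-linked by lysyl oxidases into the fibers of the stroma. In the mammary gland these genes are made chiefly by fibroblasts, while the basement membrane of type IV collagen, nidogen, and collagens XV and XVIII lies between epithelium and stroma and is made by cells on both sides. Cells were dissected in this study so that stromal RNA would not mask changes in the epithelium, and the comparisons below ask how much matrix RNA the dissected samples still held, and whether it followed histology, transgene or Wnt cluster. In such samples fewer cells of a type and less RNA per cell cannot be told apart.

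Promoters of 4 genes, 3 that varied together and 1 that the comparisons turn on, are shown by the 250 bases before the transcription start, taken from RefSeq (mouse build GRCm38.p6) and written 5′ to 3′ on the gene's strand. Capitals mark the motif CCAAT, the motif TATAA or the motif GGGCGG on either strand. Col1a2, Col3a1 and Col5a1 varied together across the tumors, with correlations (Pearson's r) of 0.793 to 0.828 between them. Col18a1 had r = 0.376 with Col1a2, 0.057 with Col3a1 and 0.153 with Col5a1. The first lies on the plus strand at chr6:4505368-4505617, the second on the plus strand at chr1:45311288-45311537, the third on the plus strand at chr2:27886175-27886424, and the start of Col18a1 shown lies on the minus strand at chr10:77166531-77166780.
Col1a2: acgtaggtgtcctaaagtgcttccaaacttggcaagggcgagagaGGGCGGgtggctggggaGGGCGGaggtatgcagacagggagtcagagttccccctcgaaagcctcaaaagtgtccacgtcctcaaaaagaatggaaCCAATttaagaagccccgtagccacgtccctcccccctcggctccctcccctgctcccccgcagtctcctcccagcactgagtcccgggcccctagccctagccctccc
Col3a1: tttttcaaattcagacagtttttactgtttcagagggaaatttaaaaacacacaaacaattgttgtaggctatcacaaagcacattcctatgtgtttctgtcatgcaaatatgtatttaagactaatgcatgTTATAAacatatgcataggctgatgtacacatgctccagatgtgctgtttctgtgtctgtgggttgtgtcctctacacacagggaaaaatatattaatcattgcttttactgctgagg
Col5a1: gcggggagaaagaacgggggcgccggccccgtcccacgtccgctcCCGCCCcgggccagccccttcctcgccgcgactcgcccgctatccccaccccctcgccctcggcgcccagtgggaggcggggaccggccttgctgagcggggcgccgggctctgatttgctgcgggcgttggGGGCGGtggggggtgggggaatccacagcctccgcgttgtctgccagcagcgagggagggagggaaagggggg
Col18a1: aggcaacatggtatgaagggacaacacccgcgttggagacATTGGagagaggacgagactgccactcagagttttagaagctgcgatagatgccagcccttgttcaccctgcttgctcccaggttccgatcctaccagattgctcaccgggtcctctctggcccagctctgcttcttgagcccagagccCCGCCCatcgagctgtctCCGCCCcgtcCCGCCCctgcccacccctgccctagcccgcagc
The letters differ between these windows. Col1a2 held 1 CCAAT and 2 GGGCGG, Col5a1 held 2 GGGCGG only, and Col3a1, with 35.2% G and C, held neither and had 2 TATAA, which overlap on the 2 strands. The window of Col18a1 held 3 GGGCGG and 1 CCAAT, and a window at the other listed start of the gene held none of the 3 motifs. Of 32851 windows of this length in the table, 33.8% held CCAAT, 22.8% held TATAA and 32.7% held GGGCGG. Windows were listed for 24 of the 38 genes, and of their 29 windows 7 held CCAAT (24.1%), 6 held TATAA (20.7%) and 18 held GGGCGG (62.1%). Col1a1, Lum and Dcn had no entry.

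A gene counts as measured in a tumor when its probe, the brightest of the gene, passed the scanner software's test against background in the tumor dye on every array of that tumor. Of the 38 genes, 18 were measured in all 17 tumors (47.4%), against 16.4% of all genes on the array. Another 6 were measured in 14 to 16 tumors, 4 in 9 to 13, 4 in 5 to 8 and 5 in 1 to 4. Col12a1, which encodes a fibril-associated collagen, was measured in none and stayed between -0.09 and 0.27. Fn1 (fibronectin) and Tnc (tenascin C) were measured in 1 tumor each, Vcan (versican) in 2, and Col5a2 and Lox in 4 each, so their ratios are mostly those of a dim spot. Between 18.3% and 61.9% of all probes were well above background in a tumor, and in p110-98, p110-225 and p110-374 the tumor color was the dimmest, with a reference 12.8, 8.90 and 11.9 times as bright at the 95th percentile, against at most 4.09 times in the others.

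The labels name epithelial cells, and of 9 epithelial markers Krt7, Krt8, Krt18 and Cldn3 were measured in all 17 tumors, Krt19 in 16, Epcam in 14, Cldn4 in 8, Cdh1 in 6 and Esrp1 in 2. Krt8 had a median of 1.82 and a lowest value of -4.24, and Krt18 a median of 1.23 and a lowest value of -4.82. The mean of 9 epithelial markers, each centered on its own mean, was -2.93 in p110-121 and between -0.49 and 1.32 in the other 16 tumors. Of 8 fibroblast markers 7 were measured in some tumors. Cd248 and Thy1 were measured in all 17 tumors, Pdgfrb in 16, Fap in 13, Pdgfra in 9, Twist2 in 8 and Prrx1 in 3, and Tcf21 in none. Of 10 endothelial markers, Vwf and Esam were measured in all 17 tumors, Emcn, Kdr, Cldn5 and Cdh5 in 11 to 16, Tek in 6, Pecam1 and Eng in 1 each, and Tie1 in none. The mean of 10 immune markers (of 11 listed, those with a value in every tumor) was highest in p110-121, at 2.39, and at most 0.89 in the other tumors. Without p110-121 the median differences of the 38 genes given further on were 0.62 for adenosquamous and 0.45 for glandular against solid tumors, and -0.37 for p75 against p110.

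Against the reference, which pools RNA of many cell types, the matrix genes fell on both sides. Mgp, measured in all 17 tumors, was above the reference in all of them, 12 genes were below it in all 17, and 24 lay on both sides. Col15a1 also had ratios above 0 throughout, but it was measured in 9 tumors, and in the other 8 the ratio of 0.03 to 0.73 was that of a dim spot. Mgp, which encodes an inhibitor of calcification in matrix, ranged from 0.55 in p110-416 to 2.69 in p110-98, with a median of 1.64. Postn (periostin) had a median of 2.73 and was below the reference only in p110-416. Col14a1 had a median of 2.78 and was above it in all 15 tumors in which it was measured. The genes always below the reference were Col1a2, Col3a1, Col5a1, Col5a2, Col6a1, Fn1, Thbs2, Cyr61, Fbln2, Lox, Pcolce and P4ha1, of which 5 were measured in every tumor. Pcolce, whose product enhances the trimming of procollagens, was lowest of those measured in all tumors, with a median of -3.32.

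The spread between tumors was wide. The SD over the 17 tumors had a median of 1.05 over the 38 genes, against 0.298 over all genes, and a median of 1.25 over the 18 genes measured in every tumor, against 0.641 over the 4645 genes so measured and complete. Lum and Dcn, small leucine-rich proteoglycans that bind collagen fibrils, had the widest spread, with SDs of 2.36 and 2.15, and Col1a1, the main chain of type I collagen, had 2.04. The narrowest were Col12a1 (0.0780), Tnc (0.340) and Eln (0.373), the gene of elastin, which are among the dimmer genes.

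**Figure D1:**
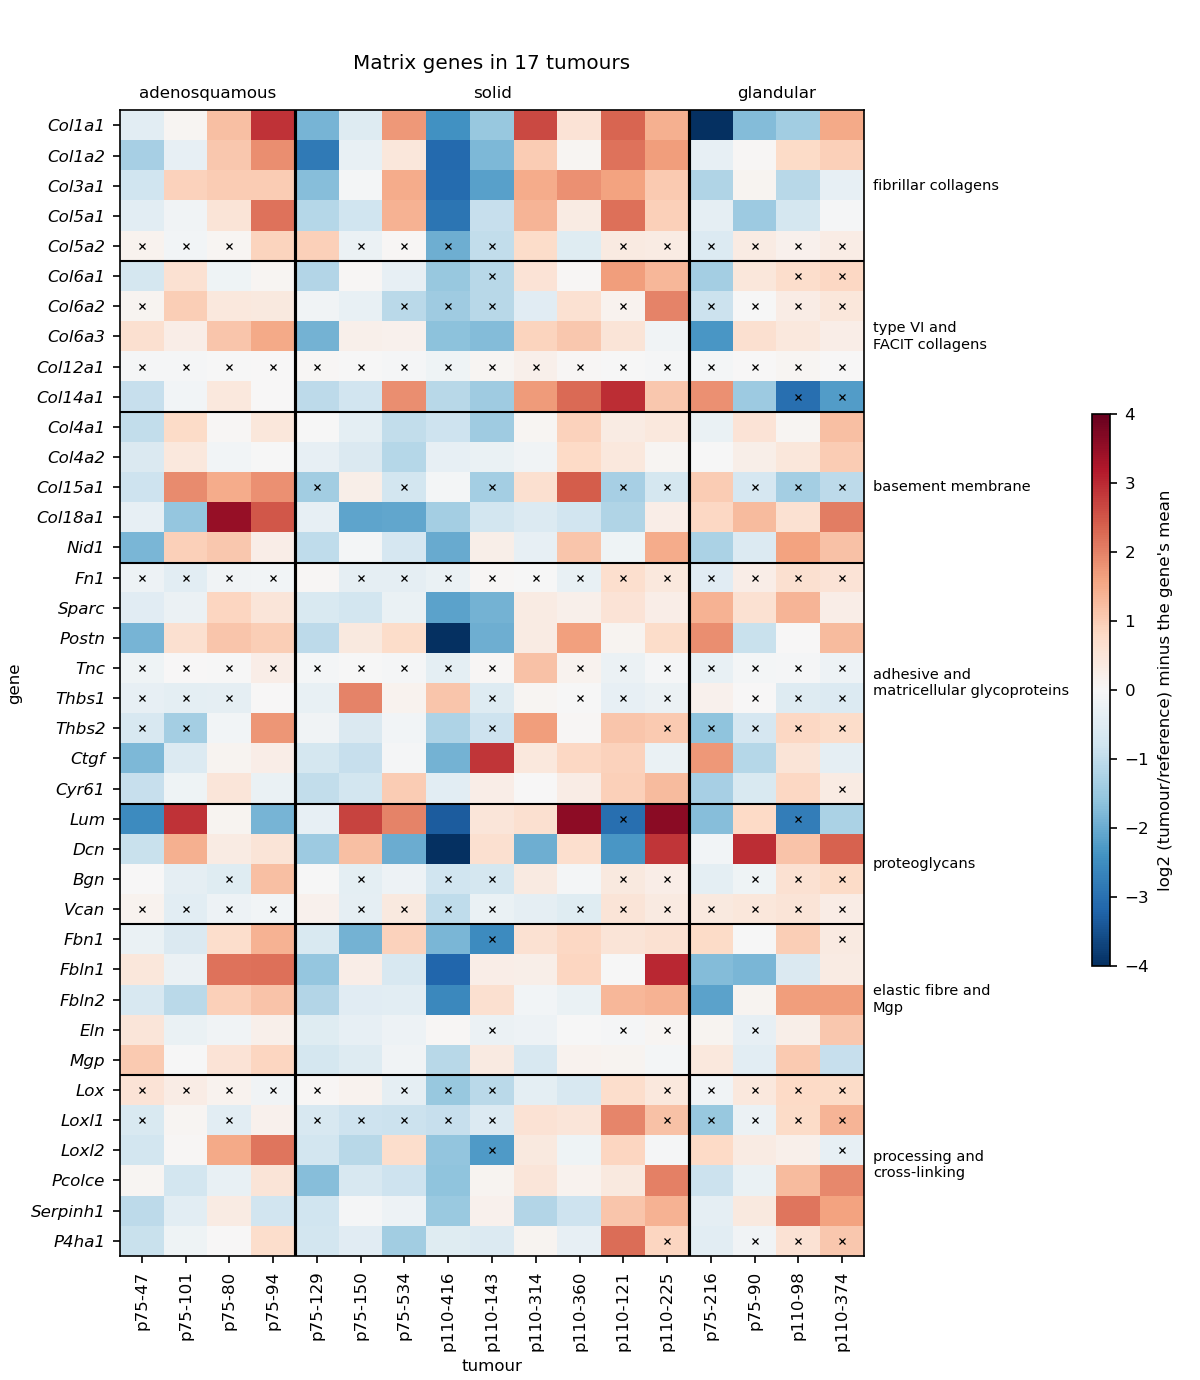
Log2 tumor over reference of each of the 38 genes (rows, by family) in 17 tumors (columns, by histology, p75 before p110 and then by the mean of the 38 genes), minus the mean of the gene, as color. Crosses mark tumors in which the gene was not measured on every array; p110-416 is blue in 36 of 38 rows, and Col12a1 is crossed throughout.

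The tumor p110-416, a solid carcinoma of the low-Wnt cluster, stood apart. It was the lowest of the 17 in 21 of the 38 genes and above a gene's mean in only 2. The mean of the 38 genes, each centered on its own mean over tumors, was -1.58 in p110-416, while the next lowest were -0.75 in p75-129 and -0.62 in p110-143. The highest were 0.85 in p110-225 and 0.72 in p75-94, followed by 0.54 in p110-121. Dcn was -5.46 in p110-416 against -2.41 in the next lowest tumor, and Postn was -1.69 against 0.36. In p110-416, 44.3% of probes were well above background, and the epithelial marker mean was 0.087. Its mean of 7 basal and myoepithelial markers was -3.14, the lowest of the 17 tumors, with p110-314 at -2.84 and p110-121 at -2.49. Its fibroblast marker mean was -1.105, next to the lowest of all tumors, -1.15 in p75-129, and the part of either cell type in the result was not tested. All comparisons below were also made without p110-416.

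**Figure D2:**
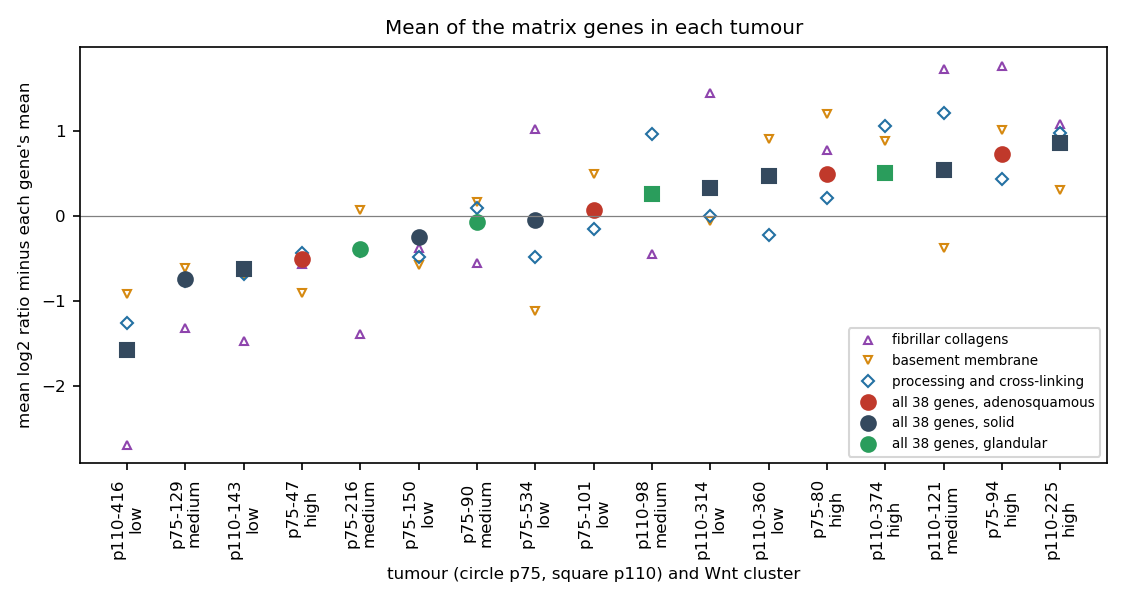
Mean of the 38 matrix genes in each tumor, each gene centered on its own mean over the 17 tumors (filled symbols colored by histology, circles p75, squares p110), with the means of 3 of the gene families (open symbols); tumors are ordered by the mean of all 38 and labelled with their Wnt cluster. The means run from -1.58 in p110-416 to 0.85 in p110-225, and the fibrillar collagens spread more than the whole list, from -2.69 to 1.76.

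The fibrillar collagen genes varied most closely together. Over the 17 tumors the mean correlation (Pearson's r) over their 10 pairs was 0.696, and without p110-416 it was 0.585. Col1a1, Col1a2, Col3a1 and Col5a1, the chains of type I, III and V collagen, were each measured in all 17 tumors. In Col1a2, the values were -3.61, -1.22, -0.44 and -2.62 in the adenosquamous carcinomas p75-47, p75-80, p75-94 and p75-101, -2.26, -2.62, -1.54 and -1.33 in the glandular p75-90, p75-216, p110-98 and p110-374, and from -5.41 to -0.13 with a median of -2.23 in the 9 solid carcinomas. The highest and the lowest tumor were thus both solid carcinomas, and the groups overlapped. Of all 38 genes Col1a2 went closest with the rest, with r = 0.926 against the mean of the other 37 genes. Col1a1 reached 0.16 in p75-94, -0.09 in p110-314 and -0.40 in p110-121, and fell to -7.20 in the adenocarcinoma p75-216, a range of 7.36 log2 units. In p75-216 the other type I chain, Col1a2, was at -2.62, within the range of the other tumors.

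Over all 703 pairs of the 38 genes, r was positive in 86.1%, with a mean of 0.312, and 0.220 without p110-416. Over all 28563 genes tested the mean was 0.00468, and over those measured in all tumors 0.00791. These values are descriptions, and all pairs share the same 17 tumors and the same signal strength per tumor. After the fibrillar collagens, the processing and cross-linking genes went together most (mean r = 0.509), then basement membrane (0.402), elastic fiber genes (0.351), and type VI and FACIT collagens (0.290). The proteoglycans (0.193, and -0.0493 without p110-416) and the matricellular glycoproteins (0.144) went together least. Single pairs of high r were Col4a1 and Col4a2 (0.824), the 2 chains of the same type IV collagen molecule, whose genes lie side by side, Fbn1 and Loxl2 (0.867), and Col6a1 and Loxl1 (0.879), the last with Loxl1 measured in 5 tumors only. Thbs1, which encodes thrombospondin 1, was the only gene with a negative r against the mean of the rest (-0.412), and it was measured in 7 tumors. It was highest in p75-150 (2.27) and p110-416 (1.39). Col15a1 and Fn1 had the lowest r of any pair, -0.630, but Fn1 was measured in 1 tumor and Col15a1 in 9.

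Lum and Dcn, which lie next to each other on chromosome 10, had r = 0.474 over the 17 tumors and 0.337 without p110-416. Lum was -0.94, 1.68, -0.29 and 4.48 in the adenosquamous carcinomas p75-47, p75-80, p75-94 and p75-101, and 2.38, -0.12, -1.18 and 0.31 in the glandular p75-90, p75-216, p110-98 and p110-374. In the 9 solid carcinomas it ran from -1.75 to 5.19 with a median of 2.22. Dcn was -0.96, 0.24, 0.45 and 1.34 in the same adenosquamous carcinomas, 2.89, -0.19, 1.05 and 2.28 in the same glandular tumors, and from -5.46 to 2.79 with a median of -1.54 in the solid carcinomas. Both genes were high in p110-225, at 5.19 and 2.79, and in p75-101. In p75-534, Lum was at 3.58 and Dcn at -2.06.

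Beside the matrix genes, the mean of 8 fibroblast markers had r = 0.690 and rho = 0.760 with the mean of the 38 genes over the 17 tumors, and r = 0.534 without p110-416 and p75-129, the 2 tumors farthest from the median. Within the 9 p75 tumors r was 0.878, and within the 8 p110 tumors 0.711. The same values were 0.198, 0.196 and 0.0883 for 10 endothelial markers, -0.152, -0.0270 and 0.102 for 6 pericyte markers, 0.480, 0.591 and 0.397 for the 10 immune markers with a value in every tumor, 0.155, 0.0980 and -0.00812 for 5 such adipocyte markers, -0.192, -0.265 and -0.333 for 9 epithelial markers, 0.314, 0.233 and -0.0911 for 7 basal and myoepithelial markers, and 0.57, 0.485 and 0.284 for 17 matrix receptors. These are r, rho, and r without the 2 tumors, given as descriptions with no test. The fibroblast mean ran from -1.15 in p75-129 to 1.47 in p110-225. A mean of 15 further genes of matrix enzymes, such as the prolyl and lysyl hydroxylases, had r = 0.840. The share of probes well above background had r = -0.389, and -0.0924 without the 2 tumors. The brightness of the reference over that of the tumor, on a log2 scale, had r = 0.354, and 0.288 without them. The part of signal strength in the result was not tested.

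**Figure D3:**
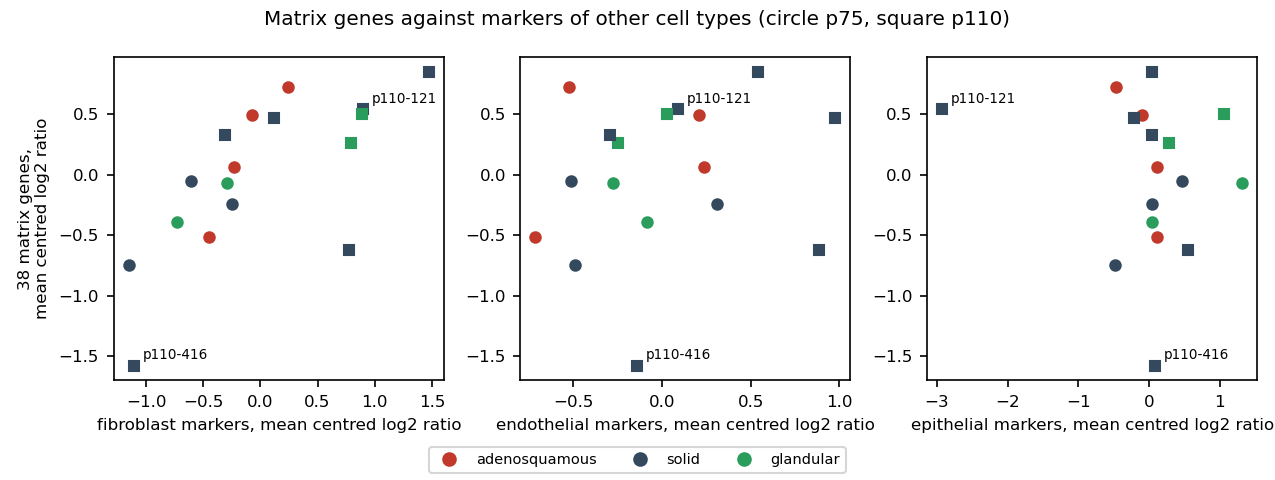
Mean of the 38 matrix genes in each tumor against the means of fibroblast, endothelial and epithelial markers, every gene centered on its mean over the 17 tumors; colors give histology, circles p75 and squares p110. The matrix genes follow the fibroblast markers (r = 0.690), with p110-416 low in both, and p110-121 is the tumor at -2.93 in epithelial markers.

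The 4 comparisons were then made gene by gene over all 28563 genes with complete values. No matrix gene passed limma's test at a Benjamini-Hochberg adjusted p under 0.05 in any of them. Of all genes, 0% were called between adenosquamous and solid carcinomas, 0.007% between glandular tumors and solid carcinomas (2 genes), 0.168% between p75 and p110 tumors (48 genes) and 0.235% between high-Wnt and low-Wnt tumors (67 genes). At an unadjusted p under 0.05, 4, 5, 7 and 9 of the 38 genes passed in that order, which is 10.5%, 13.2%, 18.4% and 23.7%, beside 3.59%, 12.3%, 11.8% and 12.1% of all genes. Counts at that threshold given below for refits without some tumors or with other processing have no share of all genes beside them. They are descriptions only. The members share much of their variation, so these counts do not stand for separate genes. None of the differences below is therefore established by the test over all genes, and each is given as a value with its error.

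**Figure D4:**
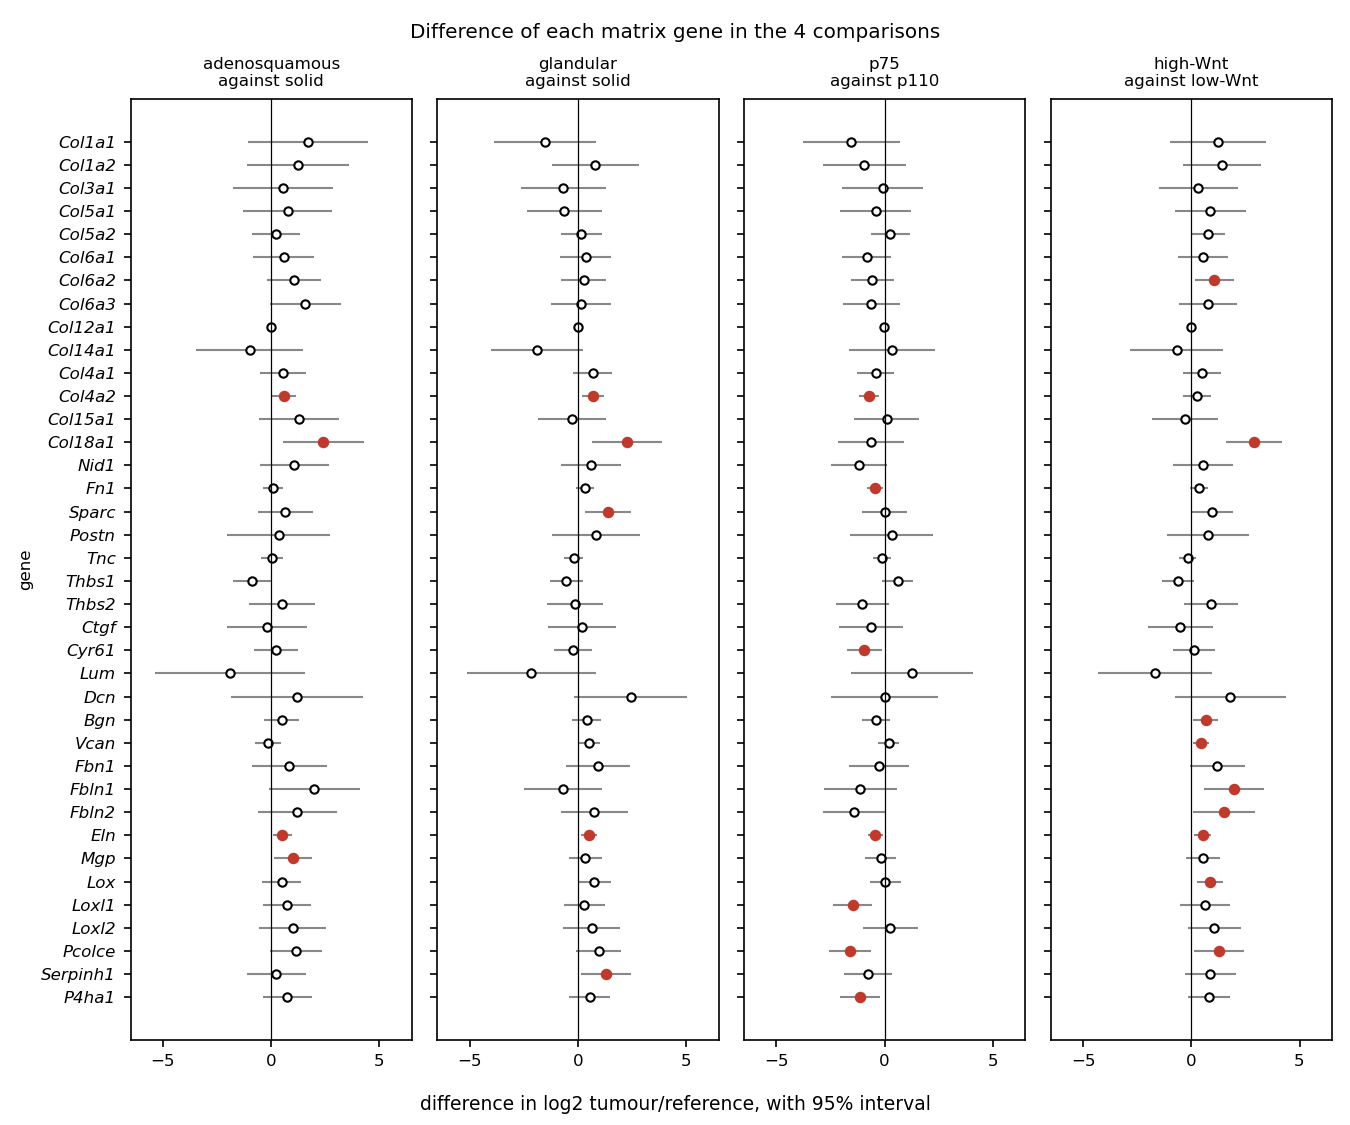
Difference in log2 tumor over reference of each of the 38 genes in the 4 comparisons, first group minus second, with 95% intervals from limma; the first 3 panels come from 1 fit with histology and transgene as terms, and red points have an unadjusted p under 0.05. The red points lie to the right in 3 panels and to the left in p75 against p110, and Col18a1 is red in all but that panel.

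Between the 4 adenosquamous and the 9 solid carcinomas, with the transgene as a term of the fit, 32 of the 38 genes (84.2%) had a difference above 0, beside 50.9% of all genes, and the median difference was 0.57, beside 0.0027 over all genes. The median was 0.27 without the transgene term, 0.16 with median centring of arrays in place of loess, and 0.87 without p75-47. All 4 adenosquamous carcinomas are p75 tumors. The genes at an unadjusted p under 0.05 were Col18a1, Col4a2, Eln and Mgp, all higher in adenosquamous carcinomas, beside 2.01% of all genes higher and 1.58% lower, and the smallest adjusted p in limma over the 38 genes was 1. Without p75-94 none of the 38 passed at an unadjusted p under 0.05, and without p75-80 there were 2. None separated the groups without overlap, beside 0.406% of all genes. All 8 fibroblast markers were above 0 in the same fit, with a median of 0.45, and their mean ran from -0.45 to 0.24 in adenosquamous and from -1.15 to 1.47 in solid carcinomas. Of 7 basal and myoepithelial markers 4 were above 0, with a median of 0.04, and Krt14 was at 2.83 ± 0.80. None of these was called, and their part in the result was not tested. All 5 fibrillar collagens were above 0 in this contrast, with a median of 0.76 and a range of 0.20 to 1.70, and none passed. The largest differences were in Col18a1 (2.41 ± 0.88, SE), Fbln1, which encodes fibulin 1, a protein of elastic fibers and basement membranes (1.98 ± 0.98), and Lum (-1.90 ± 1.62), with the Lum interval from -5.37 to 1.57. Col18a1 was at 1.59 without p75-80, and Lum at -1.17 without p75-47 and -2.98 without p75-101. Without the transgene term Fbln1 was at 1.24 and Lum at -1.05. Mgp was 2.68, 2.20, 2.52 and 1.64 in the adenosquamous carcinomas and from 0.55 to 2.02 in the solid ones, so that only p75-101 lay within the range of the solid carcinomas. In an exact two-sided permutation test of the difference in means Mgp had p = 0.00979, in a comparison that allows no p below 0.0014.

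Between the 4 glandular tumors and the 9 solid carcinomas, 27 of the 38 genes (71.1%) were above 0, beside 52.4% of all genes, with a median difference of 0.35, beside 0.0083, which turned to -0.61 with median centring of arrays in place of loess. Col18a1, Col4a2, Eln, Serpinh1 and Sparc had an unadjusted p under 0.05, and all were higher in glandular tumors, beside 8.75% of all genes higher and 3.52% lower. There were 3 such genes without p110-98, 8 without p75-129 or p75-150, and 9 without p110-121, p110-225 or p75-216. Markers of other cells differed in the same contrast. Of 7 basal and myoepithelial markers 6 were above 0, with a median of 1.87, and the list mean ran from 0.72 to 1.69 in glandular tumors and from -3.14 to 0.92 in solid carcinomas. Of 9 epithelial markers 6 were above 0, with a median of 0.98, and their list mean ran from 0.04 to 1.32 and from -2.93 to 0.55. Krt5 (3.75 ± 1.48), Myh11, Krt7 and Krt18 had an unadjusted p under 0.05. Of 8 fibroblast markers 6 were above 0, with a median of 0.40, and Cd248 was at 1.97 ± 0.71. Of 10 endothelial markers 4 were above 0, with Vwf (1.87) and Esam (1.74) higher and Emcn (-2.19) and Kdr (-1.72) lower at an unadjusted p under 0.05. Of 10 immune markers 3 were above 0, with Lyz2 at -3.31, and of 5 adipocyte markers none, with Fabp4 at -4.57. None of these markers was called, and their part in the result was not tested. The families split here. All 6 processing and cross-linking genes were above 0 (median 0.69), and among them Serpinh1, the collagen chaperone HSP47, had a difference of 1.28 ± 0.54. It was 1.06, 0.31, 2.80 and 2.28 in p75-90, p75-216, p110-98 and p110-374, and from -0.83 to 2.07 in the solid carcinomas, and the 2 highest glandular values are of 2 of the dimmest tumors. Only 2 of the 5 fibrillar collagens were above 0, with a median of -0.62. Sparc, whose product binds collagen and calcium, was -0.21, 0.58, 0.56 and -0.56 in the glandular tumors and from -2.95 to -0.27 with a median of -1.08 in the solid carcinomas. A second Sparc probe, also measured in all tumors, was -2.27, -2.58, 0.15 and -1.62 in the same glandular tumors. It ran from -3.50 to -1.40 in the solid carcinomas, so that only p110-98 lay above their range. The largest differences were in Dcn (2.44 ± 1.21, adjusted p = 0.432 in limma), Col18a1 (2.27 ± 0.75, adjusted p = 0.258) and Lum (-2.15 ± 1.38, adjusted p = 0.554), so that the 2 proteoglycans lay on opposite sides, with intervals that both hold 0. Col18a1 was at 0.71 with median centring. Dcn was at 0.90 with median centring and at 1.22 over the mean of its probes. Without the 3 dimmest tumors, of which 2 are glandular, none of the 38 genes had an unadjusted p under 0.05 and the median difference was 0.14.

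Between p75 and p110 tumors, with histology as a term, the direction was the other way. Only 11 of the 38 genes (28.9%) were above 0, beside 49.9% of all genes, with a median of -0.43, beside -0.00028, which was -0.11 without the histology term and turned to 0.57 with median centring of arrays in place of loess. The 7 genes at an unadjusted p under 0.05 (Col4a2, Cyr61, Eln, Fn1, Loxl1, P4ha1 and Pcolce) were all lower in p75 tumors, beside 7.09% of all genes lower and 4.73% higher. None of the 38 separated the groups without overlap, beside 0.179% of all genes. Of 8 fibroblast markers 7 were below 0 in the same fit, with a median of -0.94, and of these Cd248 was called. Of 7 basal and myoepithelial markers 5 were above 0, with a median of 0.99, and none passed. At an unadjusted p under 0.05 the endothelial Esam (-1.91), the pericyte marker Cspg4 (-1.16) and the immune marker Cd79b (-1.87) were lower in p75 tumors. The pericyte marker Notch3 (1.08) and the epithelial Cldn3 (1.30) were higher, and none of these was called. The part of these markers in the result was not tested. The 2 transgenes were scanned in different years, so that transgene and scan year cannot be told apart, and the 3 dimmest tumors are all p110. Without them 1 of the 38 genes had an unadjusted p under 0.05, and the median was -0.24. Pcolce had the largest difference, -1.60 ± 0.46 (adjusted p = 0.196 in limma). In the 9 p75 tumors it ran from -5.12 to -2.88 with a median of -4.04, and in the 8 p110 tumors from -5.003 to -1.38 with a median of -2.97, and the groups overlapped. With median centring in place of loess the difference of Pcolce was 0.0776 and that of Col1a1 0.0719, both above 0. Loxl1, a lysyl oxidase that acts in elastic fibers, was at -1.47 ± 0.42 (adjusted p = 0.195), but it was measured in 2 p75 and 3 p110 tumors only. It was at -2.27 with the scanner software's processed signals, at -0.57 with median centring and at -0.56 with the tumor color alone. In p75 tumors it ran from -3.44 to -1.78 and in p110 tumors from -2.85 to 0.03, the highest being p110-121. P4ha1, a subunit of the prolyl hydroxylase that stabilizes the collagen helix, was at -1.14 ± 0.42. Col1a1 was at -1.53 with an interval from -3.76 to 0.69. It was at -0.965 without p110-374, -0.987 without p75-216, -0.53 without the 3 dimmest tumors and -0.66 over the mean of its probes, and -2.28 without p75-534. Without p110-416, 13 of the 38 genes had an unadjusted p under 0.05, and the smallest adjusted p was 0.0577, for Pcolce. The share of all genes in that fit is not given here.

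Between the 5 high-Wnt and the 7 low-Wnt tumors, 31 of the 38 genes (81.6%) were above 0, beside 54.9% of all genes, and the median difference was 0.72, beside 0.016, which turned to -0.02 with median centring of arrays in place of loess. The mean of the 38 genes, centered by gene, was 0.41 ± 0.54 (SD, n = 5) in high-Wnt, -0.08 ± 0.51 (n = 5) in medium-Wnt and -0.23 ± 0.69 (n = 7) in low-Wnt tumors, so the groups overlapped widely, from -0.51 in p75-47 to 0.85 in p110-225 for the high-Wnt and from -1.58 to 0.46 for the low-Wnt tumors. Bgn, Col18a1, Col6a2, Eln, Fbln1, Fbln2, Lox, Pcolce and Vcan had an unadjusted p under 0.05, all higher in high-Wnt tumors, beside 6.68% of all genes higher and 5.44% lower. Without p110-416 there were 6 such genes and the median was 0.52, without the 3 dimmest tumors there were 4 and the median was 0.40, and without p75-47 there were 15. With median centring there was 1 such gene. Lox and Vcan were measured in none of the 5 high-Wnt tumors and have no level there. Bgn was measured in 2 of the 5 high-Wnt and 4 of the 7 low-Wnt tumors, and Col6a2 in 3 and 4. Their differences thus rest in part on dim spots. All 5 fibrillar collagens (median 0.88), all 5 genes of the elastic fiber and Mgp group (median 1.19) and all 6 processing genes (median 0.86) were above 0. Among the 8 fibroblast markers 7 were above 0, with a median of 0.70, and none was called. In high-Wnt tumors their mean lay between -0.45 and 1.47, in low-Wnt tumors between -1.105 and 0.77, and their part in the result was not tested. Of 7 basal and myoepithelial markers 6 were above 0, with a median of 1.46, and their mean ran from -0.12 to 1.69 in high-Wnt and from -3.14 to 0.62 in low-Wnt tumors. At an unadjusted p under 0.05 Krt14 was higher in high-Wnt tumors, at 1.96 ± 0.89, and Oxtr lower, at -0.57 ± 0.21, while Krt5 (3.27 ± 1.60) and Trp63 (2.19 ± 1.18) did not pass. The epithelial marker Epcam (-0.92 ± 0.35) and the endothelial markers Kdr (-1.34 ± 0.50) and Cldn5 (-1.21 ± 0.55) were also lower at that threshold. The fibroblast marker Twist2 (1.18 ± 0.54) and the pericyte marker Cspg4 (1.17 ± 0.45) were higher at it. None of these markers was called, and their part in the result was not tested either.

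Col18a1 came closest to the threshold. It encodes the chain of collagen XVIII, a basement membrane proteoglycan whose end fragment is endostatin. In high-Wnt tumors it was -1.09 in p75-47, 2.73 in p75-80, 1.73 in p75-94, -0.48 in p110-225 and 1.29 in p110-374. In low-Wnt tumors it ran from -2.85 to -1.29 with a median of -2.11. In the probe used the 2 groups did not overlap, a split found in 1.7% of all genes. Among the 38 genes it was found in this 1 only (2.63%). The difference was 2.89 ± 0.61, a 7.42-fold higher ratio with an interval of 3.02-fold to 18.2-fold, and an adjusted p of 0.0620 in limma. The exact two-sided permutation p was 0.00126, the smallest these groups allow. Groups without overlap give a value at or next to that floor, so it restates the split and is no separate support. Within p75 tumors the difference was 3.79 (3 high, 3 low) and within p110 tumors 2.00 (2 high, 4 low), and with the transgene as a block the adjusted p was 0.0585. Both p110 high-Wnt tumors are among the 3 dimmest and no p110 low-Wnt tumor is. Wnt cluster and signal strength thus cannot be told apart within p110. Medium-Wnt tumors lay between, at -0.51 ± 0.99 (SD, n = 5).

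The same gene separated glandular from solid tumors. It was 0.52, 0.07, -0.14 and 1.29 in p75-90, p75-216, p110-98 and p110-374, and at most -0.48 in the 9 solid carcinomas, and such a split was found in 0.574% of all genes. The difference was 2.27 ± 0.75, with an adjusted p of 0.258 in limma, and it was 0.71 with median centring in place of loess. Its exact two-sided permutation p was 0.0014, again the smallest possible and again a restatement of the split. In the adenosquamous carcinomas p75-80 and p75-94 were the highest of all 17 tumors, while p75-47 at -1.09 and p75-101 at -2.305 lay within the range of the solid carcinomas. Both comparisons share tumors, since p110-374 is both glandular and high-Wnt and 6 of the 7 low-Wnt tumors are solid. A second probe of the gene, 245 bases upstream, measured in 13 tumors, had r = 0.968 with the probe used. In the second probe high-Wnt and low-Wnt tumors overlapped, with the high-Wnt p75-47 at -1.01 and the low-Wnt p110-314 at -0.82. Glandular and solid tumors did not overlap in it, with p75-216 the lowest glandular at -0.51 and p110-225 the highest solid at -0.75. The probe used lies on chromosome 10 from 76707663 to 76707722 in the mm7 build of the array design and is the more 3′ of the 2. The other basement membrane genes differed less in the comparison of high-Wnt and low-Wnt tumors, with 0.48 for Col4a1, 0.26 for Col4a2, 0.54 for Nid1 and -0.28 for Col15a1, none with an unadjusted p under 0.05.

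**Figure D5:**
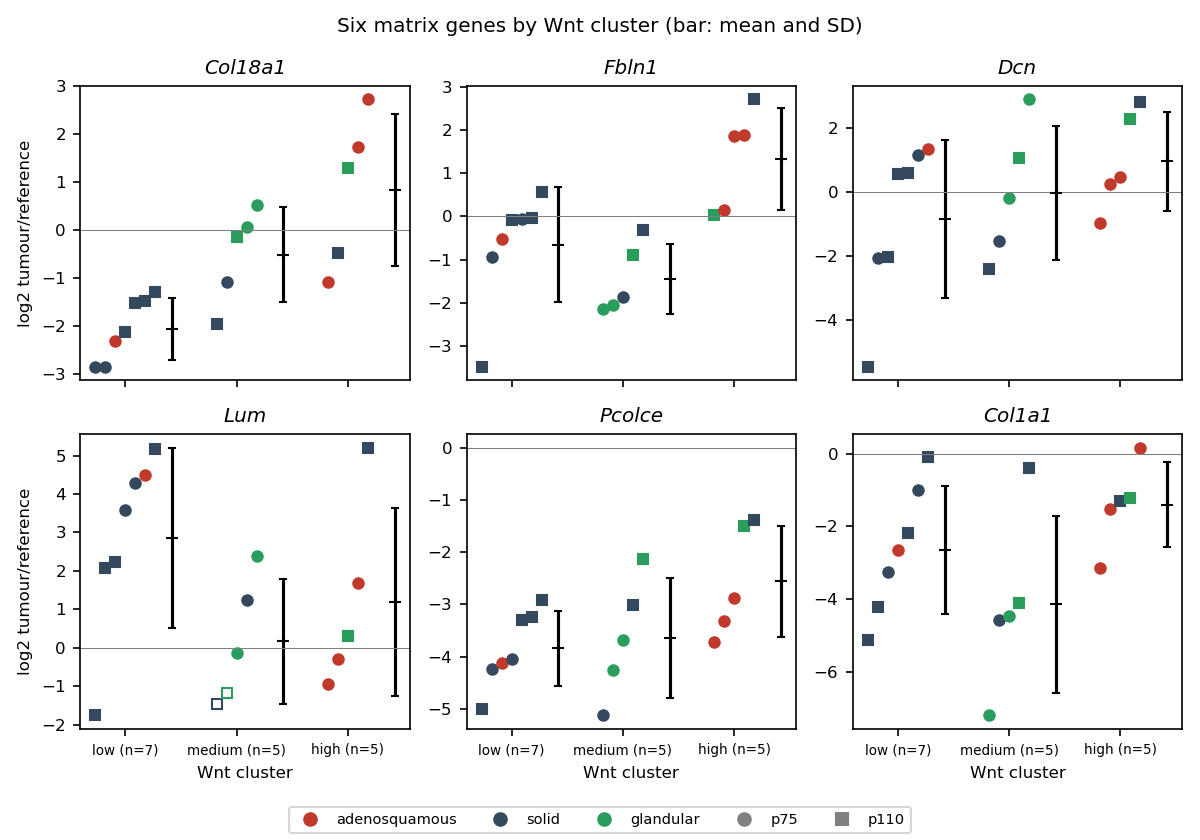
Log2 tumor over reference of Col18a1, Fbln1, Dcn, Lum, Pcolce and Col1a1 in the low-Wnt, medium-Wnt and high-Wnt tumors; each symbol is 1 tumor (circle p75, square p110, color by histology, open where not measured), and the bar gives mean and SD. High-Wnt and low-Wnt tumors do not overlap in the Col18a1 probe shown and overlap in the other 5 genes.

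Fbln1 and Fbln2 encode fibulins that join elastic fibers and basement membranes. Fbln1 was 0.15, 1.88 and 1.89 in p75-47, p75-80 and p75-94, and 2.72 and 0.03 in p110-225 and p110-374, and it ran from -3.49 to 0.56 with a median of -0.08 in low-Wnt tumors. Its difference was 1.98 ± 0.65 (adjusted p = 0.215 in limma, exact permutation p = 0.0152), and it was 1.51 without p110-416 and 1.13 with median centring. The medium-Wnt tumors were lower than either, at -1.45 ± 0.80 (SD, n = 5). Fbln2 had a difference of 1.51 ± 0.67, and Pcolce one of 1.28 ± 0.54. Dcn was at 1.81 ± 1.20. It was at 1.04 without p110-416, at 0.91 with median centring and at 0.756 in the lowest of 15 alternatives. Lum went the other way, at -1.67 with an interval from -4.29 to 0.94. For Lum the difference was -3.97 within p75 tumors and 0.82 within p110 tumors, and a test of the difference between the transgenes did not pass (adjusted p = 0.402 in limma). In the same test Serpinh1, with differences of -0.27 within p75 and 2.34 within p110 tumors, had an adjusted p of 0.114, the smallest of the 38 genes. For these genes too, the p110 high-Wnt tumors p110-225 and p110-374 are among the dimmest, and no p110 low-Wnt tumor is.

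Other genes of matrix biology were tested in the same fits. None of 15 further matrix enzymes and none of 17 matrix receptors was called in any comparison. At an unadjusted p under 0.05, 5 of the enzymes and 5 of the receptors were higher in high-Wnt tumors and none lower, beside 6.68% of all genes higher and 5.44% lower, with median differences of 0.15 and 0.25. Of these enzymes, Plod2 was measured in 0 tumors, Loxl4 in 1 and Pcolce2 in 2. In p75 against p110 tumors 1 enzyme and 4 receptors were lower and none higher, beside 7.09% and 4.73% of all genes. Among the 8 fibroblast markers Cd248, which encodes endosialin, was called, with a difference of -3.89 ± 0.67 in p75 against p110 tumors (adjusted p = 0.0425 in limma), in the comparison where 7 of the 8 were below 0. The list mean ran from -1.15 to 0.24 in p75 and from -1.105 to 1.47 in p110 tumors, and its part in the differences of the matrix genes was not tested.

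Probes of the same gene did not always give the same value. The 38 genes have 69 probes, and 22 genes have more than 1. In 19 of these 22 the brightest probe was the one nearest the 3′ end. Of 24 probes over 1000 bases upstream of it, 2 were measured in at least 9 tumors, and of 7 nearer ones 4 were. In Col1a1 the probe used was measured in all 17 tumors, and 2 probes 1023 and 13798 bases upstream in 3 and 2 tumors. Means of probes differed in sign in 10 genes, and in 7 of these the other probe was measured in at most 2 tumors. In Col6a2 the means were -1.05 and 0.17 (r = 0.718), and in Col4a1 0.50 and -0.19 (r = 0.703).

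Col5a1 was the exception, with 2 bright probes, both measured in all 17 tumors, that gave unlike patterns. The probe used, on chromosome 2 from 28044683 to 28044742 in mm7, had a mean of -2.64, and the other, whose ends lie at 27994034 and 27996457 and so span an intron in the design, had a mean of 1.38. Their r over the tumors was 0.0273. The second probe was highest in p110-98 (4.55), p110-374 (4.00), p110-225 (3.50) and p110-121 (3.38), in which the first was at -3.34, -2.68, -1.68 and -0.44. These are also the tumors with the brightest reference over the tumor, at 12.8, 11.9, 8.90 and 4.09 times at the 95th percentile. The part of signal strength in the second probe was not tested. The first went with Col1a2 and Col3a1 (r = 0.826 and 0.828). In Sparc both probes were measured in all tumors, with means of -0.81 and -2.23 and r = 0.497.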

How the data were processed

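RNA of laser-dissected epithelium from 17 tumors was compared with 1 reference RNA on 38 Agilent 2-color arrays. The intensities the authors deposited are raw spot brightnesses from the scanner software, not normalized between arrays. The deposited log2 ratio table was made by the authors, who name limma, and it equals normexp correction (offset 50) and loess within arrays, averaged over dyes (largest difference 4.98e-08). The submitters' processing notes name limma without a version.

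Values were recomputed from mean signals and median backgrounds with R 4.3.3 and limma 3.58.1 by normexp (offset 50) and loess. Outlier spots (0.545%) were left out, ratios were turned by the dye named in the labels, and spots, dyes and arrays were averaged to 1 value per tumor. The brightest probe stood for a gene. Symbols came from RefSeq for 55.7% of 41174 probes and otherwise from the files. Averaging over dyes cancels a dye effect, and normexp compresses ratios of dim spots. The number of arrays and signal over background limit the precision.

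The 2 limma fits over 28563 genes gave the comparisons, 1 with histology and transgene and 1 with the 3 Wnt clusters, which come from the study and not from the sample labels. P-values were Benjamini-Hochberg adjusted over all genes, and single genes were also compared by exact two-sided permutation tests (38 genes in each of 4 comparisons, unadjusted). The fit was tested on simulated data. Named genes are the 3 with the largest difference per comparison, the 3 widest and 3 narrowest over tumors, and those whose probes differ in sign. Others are named for counts or family. Genes and lists were chosen with earlier results of these data known. Sources do not say more of replication than 1 tumor per mouse. Alternatives were other background corrections, signals, scalings, probe rules, filters, dyes, blocks and sample sets.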

Additional observations from a re-analysis of the deposited data

Results flagged for a closer look

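Tnc, the gene of tenascin C, was far higher in p110-314 than in the other p110 solid carcinomas, at 1.2 against at most 0.18 in the other 5, and it was the only tumor in which that probe was measured. It was found among 22 tests of 11 measures in 2 groups, of which chance gives about 1 in 20.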

How the results depend on the processing

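No matrix gene was called in adenosquamous against solid carcinomas or in glandular against solid tumors under any alternative, with each tumor left out in turn included. In high-Wnt against low-Wnt tumors 1 gene, Col18a1, was called with a filter on dim probes (adjusted p = 0.0433), and leaving out single tumors gave 0 to 1 called genes. It was called without p110-121 (adjusted p = 0.0474) and without p75-47 (0.0424), and over all these settings the smallest adjusted p of the 38 genes ran from 0.0424 to 0.681. In p75 against p110, leaving out single tumors gave 0 to 0 called genes, and median centring in place of loess called 3 (Col5a2, Lox and Sparc), among 4853 genes in all. That setting also turned the median difference of the 38 genes to -0.61 in glandular against solid, to 0.57 in p75 against p110 and to -0.02 in high-Wnt against low-Wnt, with medians of all genes at -0.08, 0.10 and -0.03, and turned Col1a1 to 0.0719 and Pcolce to 0.0776 in p75 against p110. The cause was not tested. No other alternative turned a median. With single tumors left out the medians ran from 0.49 to 0.87, 0.27 to 0.50, -0.55 to -0.35 and 0.52 to 0.81 in the order of the report, and the counts with an exact permutation p under 0.05, which were 2, 3, 5 and 8, from 1 to 3, 1 to 6, 3 to 10 and 3 to 11. In the same order, the counts at an unadjusted p under 0.05 were 4, 5, 7 and 9. They were 1, 11, 8 and 1 with median centring, 3, 4, 1 and 5 when all arrays were given equal spread, and 4, 4, 3 and 5 with the processed signals of the scanner software. Neither the counts under these settings nor the permutation counts have a share of all genes beside them. They cannot be read as an excess among the 38 genes. Signal over background limits the genes that few tumors measured. No paired analysis was possible because replicate numbers only follow the order of the samples.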
